A study of Mus musculus with 6 samples.

Results

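The genes of the synaptic vesicle and its release machinery were examined in the hippocampus of mice lacking Trpc4. A list of 44 genes was taken by name, and each gene was read from a probe set that the platform annotation assigns to that gene alone. Where several such probe sets existed, the brightest over all 6 arrays was used. This rule gave values for 43 of the 44 genes, out of 22180 genes tested in all. Doc2a, a soluble C2-domain calcium sensor, had only a probe set shared with a neighbouring gene and was not analysed here.

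All samples were hippocampus of male mice with a C57BL/6J strain background at postnatal day 56. There were 3 samples labelled Trpc4 wild type and 3 labelled Trpc4 knock out, with 1 Affymetrix array for each. No treatment is named for either genotype, and the labels do not state which part of Trpc4 was removed, whether the deletion is confined to some cells, or whether each replicate is a separate animal. The spread behind every p-value is thus that between labelled samples, part of which may be technical. The comparison asked which vesicle and release genes differ in signal when Trpc4, a receptor-operated cation channel gene, is deleted.

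Transmitter is released when a vesicle loaded by a transporter docks at the active zone, is primed by scaffold and priming proteins, and fuses through the SNARE proteins after calcium binds a synaptotagmin. Complexins bind the assembled SNARE complex and both restrain and promote fusion, NSF and its attachment proteins take the complex apart again, and dynamin, amphiphysin and synaptojanin retrieve the membrane. Most of these proteins come in families of paralogs, and in the hippocampus the excitatory principal cells, the mossy fibres of the dentate gyrus and the interneurons use different family members.

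All signals are log2 values of 1 probe set per gene, and differences are knockout minus wild type on that scale. A mean is followed by the SD over the 3 samples of its genotype. Probe sets differ in how well they hybridise, so a level describes a gene across samples, and levels of paralogs are given side by side with no order between genes. Array medians lay between 4.73 and 4.75. The median of the 41345 probe set means was 4.72, and the wild-type mean of every measured member lay above it. Wild-type means above that median were found for 14 of 14 neuron markers, 10 of 11 dentate gyrus markers (all but Tdo2), 6 of 6 CA1 markers, 5 of 6 CA2 markers and 9 of 9 CA3 markers. The same was true of 10 of 12 thalamus and habenula markers, 4 of 5 striatum markers and 58.5% of all genes, so this limit does not tell hippocampus from other brain regions. Trpc4 itself had signals of 8.06, 8.23 and 8.06 in wild type and 7.39, 7.55 and 7.31 in knockout. All its knockout samples lay below all wild-type samples, by at least 0.51. The difference was -0.70 with a 95% confidence interval of -0.92 to -0.48. Its limma p was 8.9e-05 before adjustment and 0.738 after it. No gene tested had a lower adjusted p, but the lowest unadjusted limma p over all genes was 4.9e-05. A probe set outside the deleted part would not check the genotype, and probe positions were not used here. As these are whole-tissue samples, fewer cells of a type and less RNA per cell cannot be told apart.

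No member passed the adjusted threshold of 0.05 in limma. The members' adjusted p values began at 0.853, and 0 of 43 were called, against 0.0% of all genes. Trpc4 did not pass this threshold either, so the count of 0 does not show that the members were unchanged. At an unadjusted p under 0.05 there was 1 member, Cplx3, which was lower in knockout (2.33% of members, against 2.59% of all genes lower at that limit). None was higher at that limit, against 3.16% of all genes. Of genes in the signal range of the dimmer members, at or below the members' median signal of 8.99, 266 of 10132 were higher at that limit. In the signal range of the brighter members it was 8 of 827. With trended and robust variances in limma, Syn1, Slc17a7, Cplx2 and Erc2, all higher in knockout, also passed the unadjusted limit. At that setting 803 of all 22180 genes were higher at the limit and 576 lower. Of the 43 members, 24 had a higher mean in knockout (55.8%), close to the 54.9% of all genes. The median difference was 0.02 over members and 0.01 over all genes tested. Knockout values lay above all wild-type values for 4 members, Slc17a7, Cplx2, Erc2 and Stx1a (9.30%, against 6.41% of all genes). Among all genes that share was 7.81% in the signal range of the dimmer members and 9.55% in that of the brighter ones. Knockout values lay below all wild-type values for 1 member, Cplx3 (2.33%, against 4.45% of all genes). In the same 2 signal ranges that share was 4.67% and 4.47%.

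The intervals of the difference in array signal were narrow for most members. The 95% confidence interval of the difference lay within a 1.5-fold change in signal either way for 42 of 43 members, and within a 1.2-fold change for 26. Slc17a6, the vesicular glutamate transporter of thalamic and other subcortical neurons, was the member with the wider interval. The standard errors of the differences ran from 0.07 to 0.19 with a median of 0.08, against a median of 0.10 over all genes. These intervals describe array signal, which need not scale with the amount of transcript, and are not adjusted for the number of genes.

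**Figure D1:**
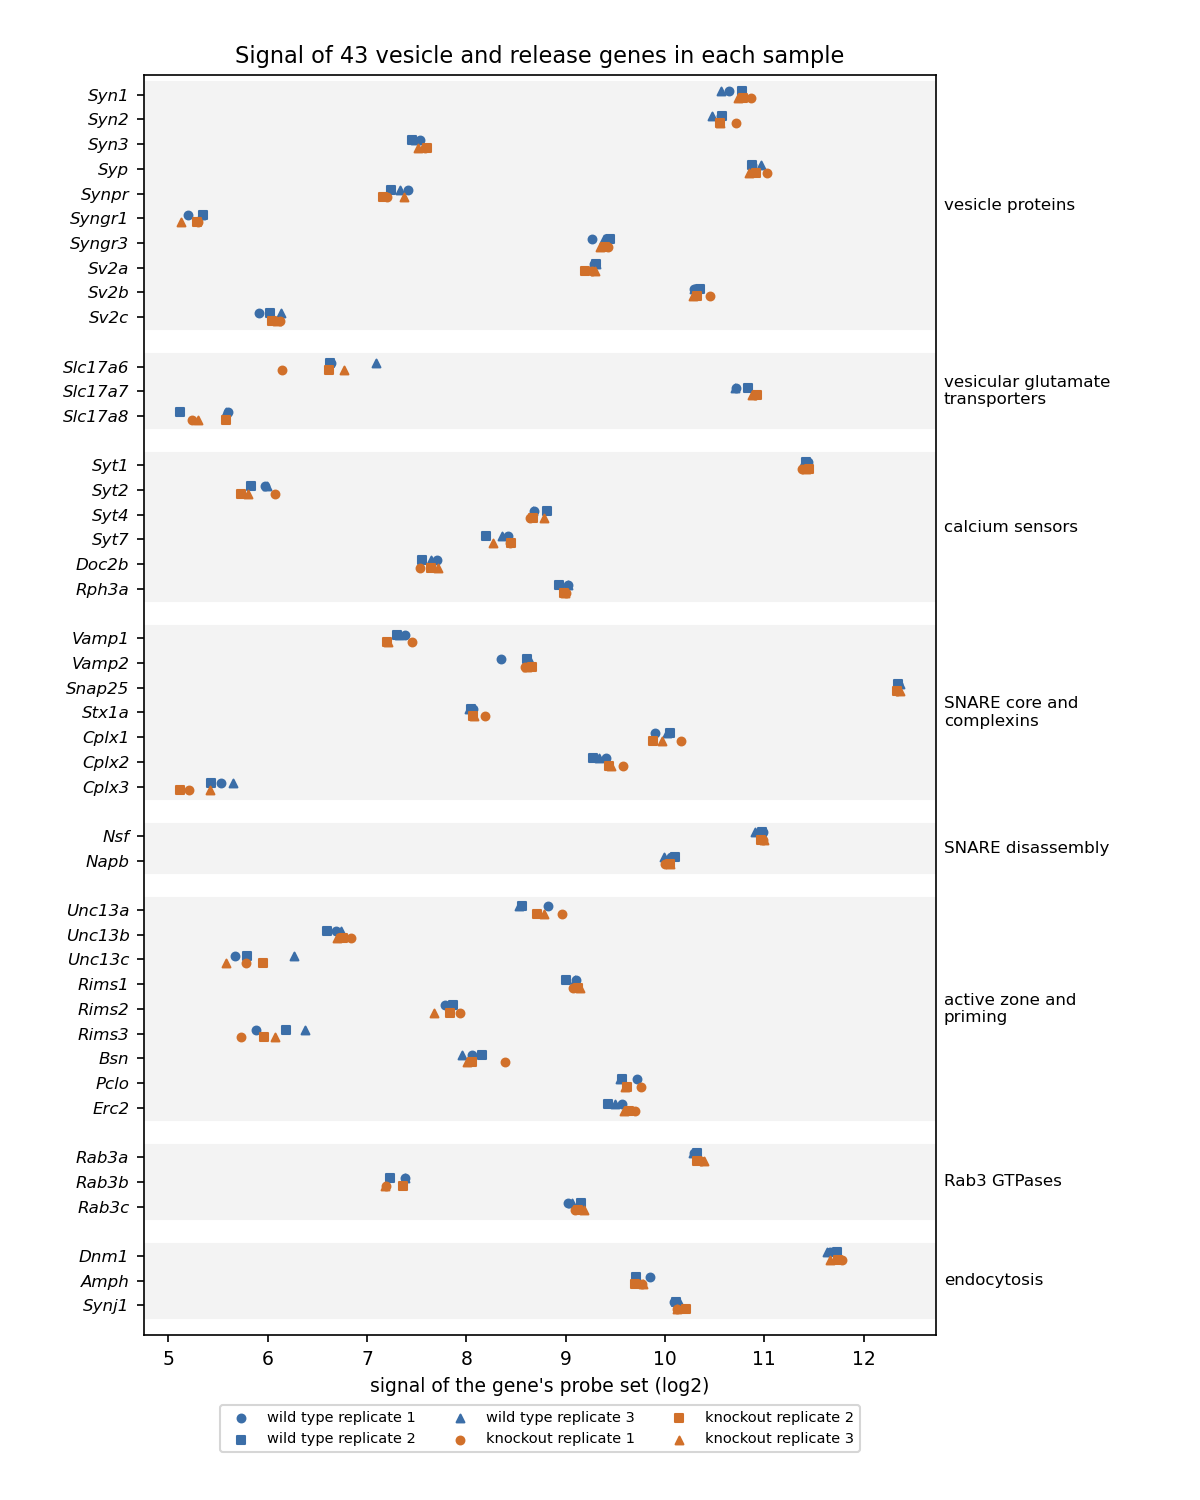
Signal (log2, horizontal axis) of the 43 measured genes in each of 3 wild-type samples (blue) and 3 knockout samples (orange), with a symbol for each replicate and genes grouped by role. For all but 5 genes the colours overlap, and the samples of Slc17a6, Slc17a8, Unc13c and Rims3 are the most scattered.

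The complexin family held the members whose groups separated in opposite directions, so the DNA around the starts of its 3 genes is shown first, from RefSeq on GRCm38.p6, 250 bases before to 50 bases after the annotated start, 5′ to 3′ on the gene's own strand. Cplx1 is at chr5:108549978-108550277 on the minus strand, Cplx2 at chr13:54302306-54302605 on the plus strand and Cplx3 at chr9:57606232-57606531 on the minus strand. Capitals mark matches, on either strand, to a GC box (GGGCGG) or an E-box (CACGTG), which do not overlap here. A cyclic AMP response element (TGACGTCA) and a TATA box (TATAAA) were searched as well and have no match in these windows.
Cplx1: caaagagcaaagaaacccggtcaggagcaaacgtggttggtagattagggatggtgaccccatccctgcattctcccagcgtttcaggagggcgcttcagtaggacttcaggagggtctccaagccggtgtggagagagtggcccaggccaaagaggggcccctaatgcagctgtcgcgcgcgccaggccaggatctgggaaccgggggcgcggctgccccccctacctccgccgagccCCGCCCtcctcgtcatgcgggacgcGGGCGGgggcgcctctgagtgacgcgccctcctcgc
Cplx2: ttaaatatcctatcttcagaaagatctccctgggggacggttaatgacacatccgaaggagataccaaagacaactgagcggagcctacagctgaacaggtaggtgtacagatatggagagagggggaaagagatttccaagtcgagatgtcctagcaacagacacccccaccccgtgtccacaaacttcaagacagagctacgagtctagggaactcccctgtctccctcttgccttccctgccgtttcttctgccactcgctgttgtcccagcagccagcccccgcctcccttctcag
Cplx3: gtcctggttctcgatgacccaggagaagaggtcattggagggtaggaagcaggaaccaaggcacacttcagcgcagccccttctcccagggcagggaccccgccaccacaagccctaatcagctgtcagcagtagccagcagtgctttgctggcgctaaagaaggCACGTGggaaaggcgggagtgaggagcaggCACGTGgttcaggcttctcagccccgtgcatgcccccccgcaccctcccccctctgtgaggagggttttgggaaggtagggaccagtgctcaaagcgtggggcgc
The Cplx1 window held 2 GC boxes and was 67.0% G and C, the Cplx3 window held 2 E-boxes and was 62.7% G and C, and the Cplx2 window held no match and was 53.3% G and C. RefSeq windows of this length existed for 35 of the 43 measured members, 48 windows in all, because some genes have several annotated starts. A GC box stood in 28 of the 48 (58.3%), against 35.7% of all 32851 windows. Member windows had a median of 61.3% G and C and all windows 52.7%, so the GC box share and the base composition differ in the same direction. An E-box stood in 4 of the 48 (8.33%, against 7.15% of all windows), a TATA box in 3 (6.25%, against 13.6%) and a cyclic AMP response element in 1 (2.08%, against 1.79%). A match is a run of letters and says nothing of binding.

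Cplx3, a complexin best known from the ribbon synapses of the retina, had signals of 5.53, 5.43 and 5.65 in wild-type replicates 1 to 3 and 5.20, 5.12 and 5.42 in knockout. All 3 knockout samples were below all 3 wild-type samples, but the closest pair, wild-type replicate 2 and knockout replicate 3, was only 0.0022 apart. The difference was -0.29 (standard error 0.11, 95% interval -0.53 to -0.04), which put knockout at 81.9% of the signal of wild type. Its unadjusted limma p was 0.0268 and its adjusted p 0.853. With single samples left out the difference lay between -0.38 and -0.22. The unadjusted limma p was 0.0233 without wild-type replicate 2 and 0.0084 without knockout replicate 3. It was 0.0584 without wild-type replicate 1 and 0.089 without replicate 3 of that genotype, 0.0735 without knockout replicate 1 and 0.0905 without knockout replicate 2.

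Cplx2, the complexin of most excitatory forebrain neurons, had signals of 9.41, 9.27 and 9.34 in wild type and 9.58, 9.44 and 9.45 in knockout. The lowest knockout sample was 0.03 above the highest wild-type sample. The difference was 0.15 with an interval of -0.03 to 0.34 and an adjusted limma p of 0.874. Cplx1, the complexin of many fast inhibitory and brainstem synapses, had 9.90, 10.05 and 10.02 in wild type and 10.16, 9.88 and 9.97 in knockout. Its groups overlapped on both sides, with a difference of 0.01 and an interval of -0.21 to 0.24. The difference between the responses of the complexin paralogs was not tested.

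The SNARE genes themselves differed little. Snap25, the plasma membrane SNARE that gives a pair of helices to the complex, had the smallest spread within groups of the list, at 12.34, 12.35 and 12.37 in wild type and 12.34, 12.33 and 12.36 in knockout. Its difference was -0.0054 with an interval of -0.16 to 0.15. Stx1a, the plasma membrane syntaxin of release sites, had 8.07, 8.05 and 8.03 in wild type and 8.19, 8.07 and 8.08 in knockout. Its groups did not overlap, but by a gap of 0.0026, and knockout replicate 1 alone stood clear of the wild-type values. The difference was 0.06 with an interval of -0.11 to 0.23 and an adjusted limma p of 0.940. The vesicle SNARE paralogs lay on either side of 0: Vamp2, the main synaptobrevin of forebrain, had 8.53 ± 0.16 in wild type and 8.62 ± 0.04 in knockout, a difference of 0.09. Vamp1, the synaptobrevin more typical of spinal cord and brainstem, had 7.33 ± 0.05 and 7.29 ± 0.14, a difference of -0.04. Neither interval left out 0, at -0.13 to 0.31 for Vamp2 and -0.26 to 0.17 for Vamp1. For Vamp2 the wild-type spread came from replicate 1 at 8.35, and without that sample its difference was -0.0020.

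The genes that take SNARE complexes apart were among the least variable of the list. Nsf, the ATPase that does the work, had 10.98, 10.98 and 10.91 in wild type and 10.98, 10.96 and 10.996 in knockout, and its groups overlapped. Napb, the brain form of its attachment protein, had 10.05 ± 0.05 in wild type and 10.03 ± 0.03 in knockout. The intervals were -0.14 to 0.19 for Nsf and -0.19 to 0.15 for Napb.

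**Figure D2:**
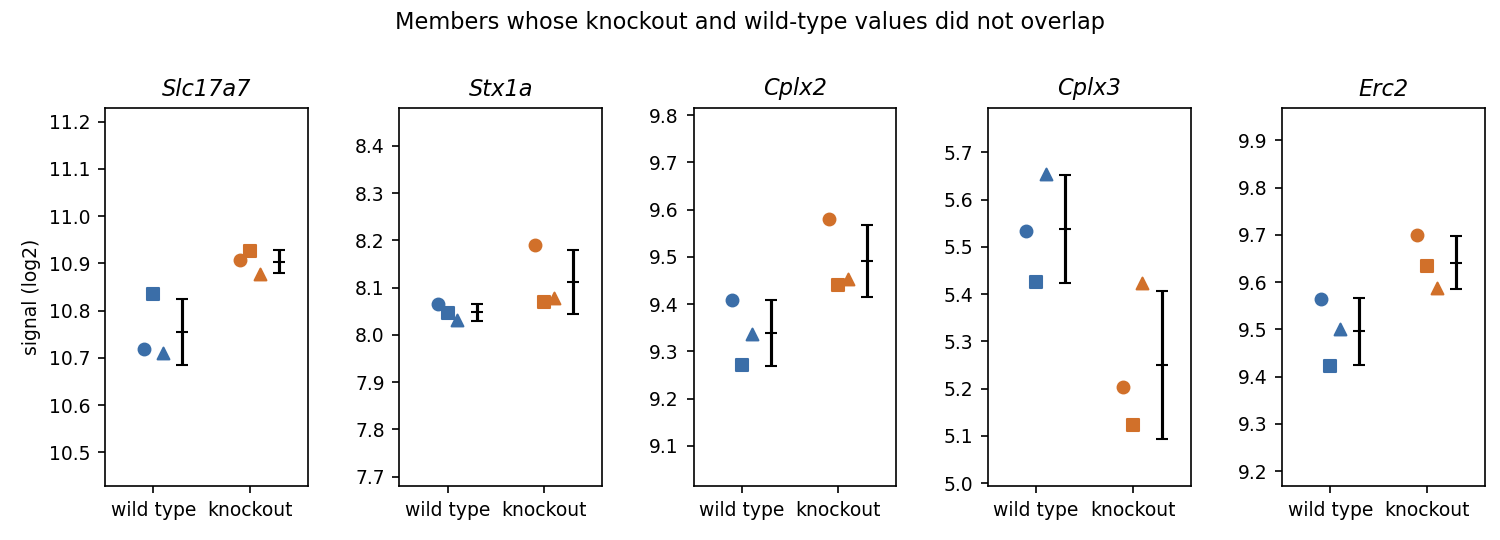
Signal (log2, vertical axis) of the 5 genes whose knockout and wild-type samples did not overlap, with the replicates as circle, square and triangle and the mean ± SD (n = 3) beside them. Every panel spans the same log2 range, and Stx1a and Cplx3 are separated by gaps of 0.0026 and 0.0022.

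Among the vesicular glutamate transporters, the gene of hippocampal principal cells and the gene of subcortical cells lay on opposite sides of 0. Slc17a7 (VGLUT1), the transporter of cortical and hippocampal excitatory terminals, had 10.72, 10.83 and 10.71 in wild type and 10.91, 10.93 and 10.88 in knockout. All knockout samples were above all wild-type samples, by at least 0.04, and the mean signal was 1.11 times that of wild type. The difference was 0.15 with an interval of -0.02 to 0.32 (limma p 0.0782 before adjustment and 0.862 after it). With single samples left out it stayed between 0.13 and 0.19.

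Slc17a6 (VGLUT2) had 6.64, 6.63 and 7.09 in wild type and 6.15, 6.62 and 6.77 in knockout. The groups overlapped, with wild-type replicate 3 the highest and knockout replicate 1 the lowest. Its difference of -0.27 had the widest interval of the list, -0.71 to 0.17, and was -0.09 without knockout replicate 1. Markers of thalamus and habenula, where Slc17a6 is strongly expressed, were lower in 6 of 12 genes, with a median difference of -0.02. The mean signal of that list was 5.52 to 5.60 in wild-type samples and 5.43 to 5.49 in knockout samples, with Pou4f1 and Nexn below the median of all probe sets. That gap rested on Zic1, at -0.96: over the other 11 genes, a choice made after seeing the data, the mean was 5.45 to 5.49 in wild type and 5.43 to 5.47 in knockout, and the groups overlapped. Its part in the Slc17a6 value was not tested. Slc17a8 (VGLUT3), found in cholecystokinin interneurons and serotonin terminals, had 5.60, 5.12 and 5.58 in wild type and 5.24, 5.58 and 5.30 in knockout. These values were fully mixed, with a difference of -0.06 and an interval of -0.42 to 0.30.

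The calcium sensors showed differences close to 0. Syt1, the fast sensor of forebrain synapses, had 11.44, 11.42 and 11.40 in wild type and 11.38, 11.45 and 11.42 in knockout, a difference of -0.0038 with an interval of -0.16 to 0.16. Syt7, a slow high-affinity sensor tied to facilitation, had 8.42, 8.20 and 8.36 in wild type and 8.44, 8.45 and 8.27 in knockout, and its groups overlapped. It had the smallest p of the sensors, with a difference of 0.06 and an interval of -0.15 to 0.28 (adjusted limma p 0.950). Syt2, the fast sensor of brainstem and parvalbumin synapses, had 5.93 ± 0.09 in wild type and 5.87 ± 0.18 in knockout, and Syt4, a synaptotagmin of dense-core vesicles that is induced by activity, had 8.72 ± 0.08 and 8.70 ± 0.07. Doc2b, a sensor of spontaneous release, differed by -0.0022 from a wild-type mean of 7.63 ± 0.08. Rph3a (rabphilin), which binds Rab3 on the vesicle and carries C2 domains, differed by -0.00023 from 8.99 ± 0.05. The sensors therefore had 1 of 6 measured members higher (16.7%, against 54.9% of all genes) and 5 lower, none by more than 0.07. All 6 changed sign when certain single samples were left out.

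The proteins of the vesicle itself are given by family. The synapsins tether vesicles to each other and to actin, and all 3 had higher knockout means. Syn1 had 10.64, 10.77 and 10.57 in wild type and 10.86, 10.79 and 10.74 in knockout. Only knockout replicate 3 fell within the wild-type range, and the difference was 0.13 with an interval of -0.06 to 0.33 (adjusted limma p 0.892). Syn2 had 10.54 ± 0.05 in wild type and 10.61 ± 0.09 in knockout, and Syn3 had 7.49 ± 0.04 and 7.57 ± 0.04. Without knockout replicate 1, the Syn2 difference of 0.07 became 0.015.

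The tetraspan vesicle proteins and the SV2 glycoproteins stayed within 0.09 of 0. Syp (synaptophysin), the abundant partner of synaptobrevin, had 10.87, 10.87 and 10.97 in wild type and 11.03, 10.92 and 10.85 in knockout. Its values were mixed, with an interval of -0.16 to 0.21. Synpr (synaptoporin), a relative enriched in mossy fibre terminals, had 7.33 ± 0.09 in wild type and 7.25 ± 0.11 in knockout, a difference of -0.09. Dentate granule cells make the mossy fibres, and 10 of 11 dentate gyrus markers had higher knockout means, with a median of 0.11. The mean signal of that list was 6.78 to 7.06 in wild-type samples and 6.93 to 7.15 in knockout samples, so the groups overlapped. Synpr and the median of that list lay on opposite sides of 0, and the part of that list in the Synpr value was not tested. The synaptogyrins, a further tetraspan family, had wild-type means of 5.29 ± 0.08 for Syngr1 and 9.37 ± 0.09 for Syngr3, with differences of -0.05 and 0.02. Of the SV2 genes, Sv2a, the target of the antiepileptic drug levetiracetam, had 9.30 ± 0.01 in wild type and differed by -0.04. Sv2b had 10.32 ± 0.03 and differed by 0.04, and Sv2c, a form prominent in basal ganglia, had 6.02 ± 0.11 and differed by 0.06. The intervals of all these genes included 0.

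**Figure D3:**
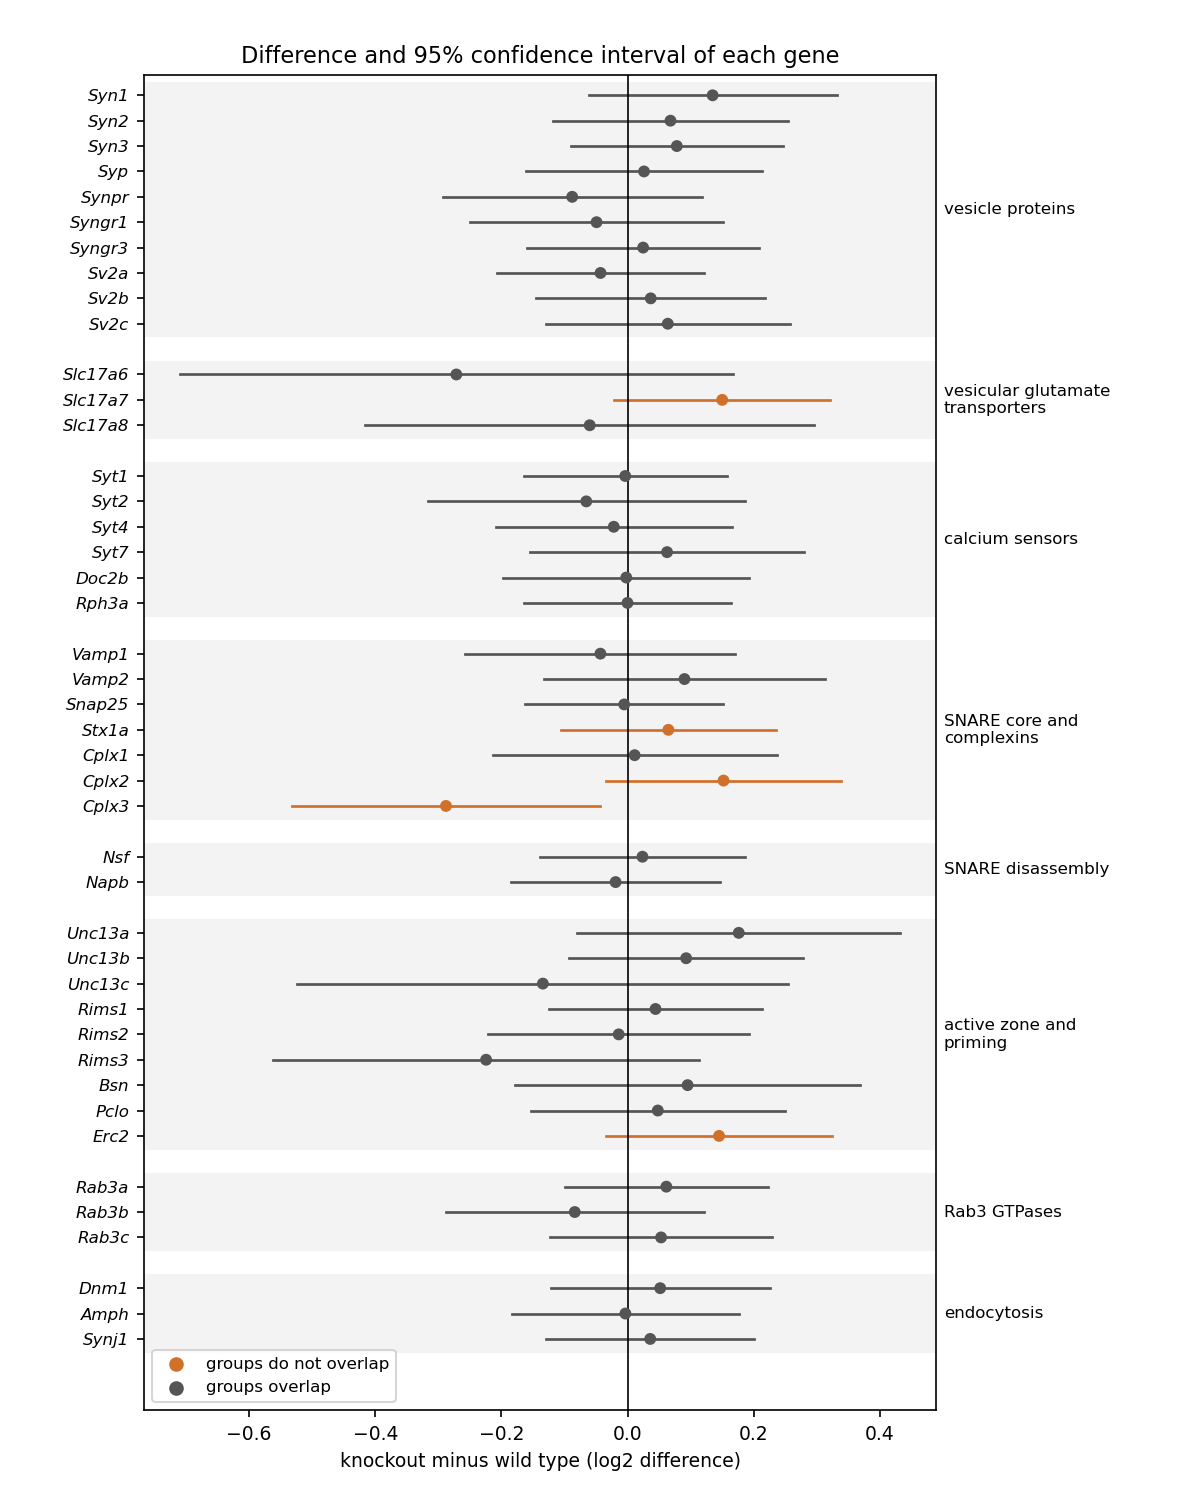
Knockout minus wild type (log2 difference, horizontal axis) with its 95% confidence interval from limma for the 43 genes, grouped by role. Genes whose samples do not overlap are orange, and Cplx3 is the gene whose interval leaves out 0.

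The active zone scaffold and priming genes had 6 of 9 members higher in knockout (66.7%, against 54.9% of all genes), with a median difference of 0.05. The 3 lower ones were Unc13c, Rims2 and Rims3. Erc2 (CAST), a scaffold of the presynaptic web, had 9.56, 9.42 and 9.50 in wild type and 9.70, 9.63 and 9.59 in knockout. All knockout samples were above all wild-type samples, by at least 0.02. The difference was 0.14 with an interval of -0.03 to 0.32 and an adjusted limma p of 0.874. Bsn (bassoon), a giant scaffold, had 8.05, 8.16 and 7.95 in wild type and 8.38, 8.06 and 8.01 in knockout, so that its difference of 0.10 rested on knockout replicate 1 and was -0.02 without it. Pclo (piccolo), its relative, had 9.61 ± 0.10 and 9.66 ± 0.09, and its difference of 0.05 was -0.0032 without knockout replicate 1.

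The Munc13 genes, which prime vesicles by opening syntaxin, differed in sign by paralog, and all 3 intervals included 0. Unc13a, the main form at excitatory hippocampal synapses, had 8.83, 8.56 and 8.53 in wild type and 8.96, 8.71 and 8.78 in knockout. Wild-type replicate 1 lay within the knockout range, and without it the difference of 0.18 became 0.27 with an unadjusted limma p of 0.0373. Unc13b, used at a smaller share of hippocampal synapses, had 6.67 ± 0.07 in wild type and 6.76 ± 0.07 in knockout. Unc13c, the cerebellar form, had 5.91 ± 0.31 and 5.77 ± 0.19, and its difference of -0.13 was 0.04 without wild-type replicate 3.

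Of the RIM genes, which tie calcium channels and Rab3 to the active zone, Rims1 had 9.07 ± 0.06 in wild type and 9.11 ± 0.04 in knockout, and Rims2 had 7.83 ± 0.04 and 7.81 ± 0.13. Rims3, a short form that keeps only the C-terminal part of the protein, had 5.88, 6.18 and 6.38 in wild type and 5.73, 5.96 and 6.08 in knockout. Its groups overlapped, and the difference of -0.22 had an interval of -0.56 to 0.11. The Rims3 difference was -0.36 without wild-type replicate 1 (unadjusted limma p 0.0312) and -0.11 without wild-type replicate 3.

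The Rab3 genes encode the vesicle GTPases to which RIM and rabphilin bind. Rab3a, the main form in brain, had 10.29, 10.32 and 10.28 in wild type and 10.36, 10.32 and 10.39 in knockout, a difference of 0.06 with an interval of -0.10 to 0.22. Rab3c had 9.08 ± 0.07 in wild type and 9.13 ± 0.05 in knockout. Rab3b, which has been tied to plasticity at inhibitory terminals, had 7.38, 7.23 and 7.38 in wild type and 7.20, 7.37 and 7.18 in knockout, and its groups overlapped. It had the smallest p of the family, with a difference of -0.08 and an interval of -0.29 to 0.12 (adjusted limma p 0.935).

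The genes of vesicle retrieval had differences of at most 0.05. Dnm1, the neuronal dynamin that pinches off endocytic vesicles, had 11.66, 11.73 and 11.64 in wild type and 11.78, 11.74 and 11.66 in knockout. Its groups overlapped, and the difference of 0.05 had an interval of -0.12 to 0.23 (adjusted limma p 0.947). Amph (amphiphysin), which recruits dynamin, had 9.75 ± 0.08 in wild type and 9.75 ± 0.04 in knockout. Synj1 (synaptojanin), the phosphatase that helps strip the clathrin coat, had 10.11 ± 0.02 and 10.15 ± 0.05.

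Across the list, the dimmer members tended to lie below 0 and the brighter ones above it. Of the 22 members at or below the list's median signal of 8.99, averaged over all 6 arrays, 14 were lower in knockout, and of the 21 above it, 16 were higher. Among all genes, 57.0% of the 10132 in the signal range of the dimmer members were higher in knockout and 62.0% of the 827 in that of the brighter ones. Pearson's r between signal and difference was 0.53 over the 43 members (Spearman's rho 0.43) and 0.01 over the 10959 genes of the same range (rho 0.01). These are correlations across genes that share the same arrays, and genes are not independent replicates. The members' r was 0.33 without wild-type replicate 3 and 0.44 to 0.61 without any other sample. Without wild-type replicate 3, 10 of the 22 dimmer members were lower rather than 14. Without knockout replicate 1, 13 of the 21 brighter members were higher rather than 16.

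**Figure D4:**
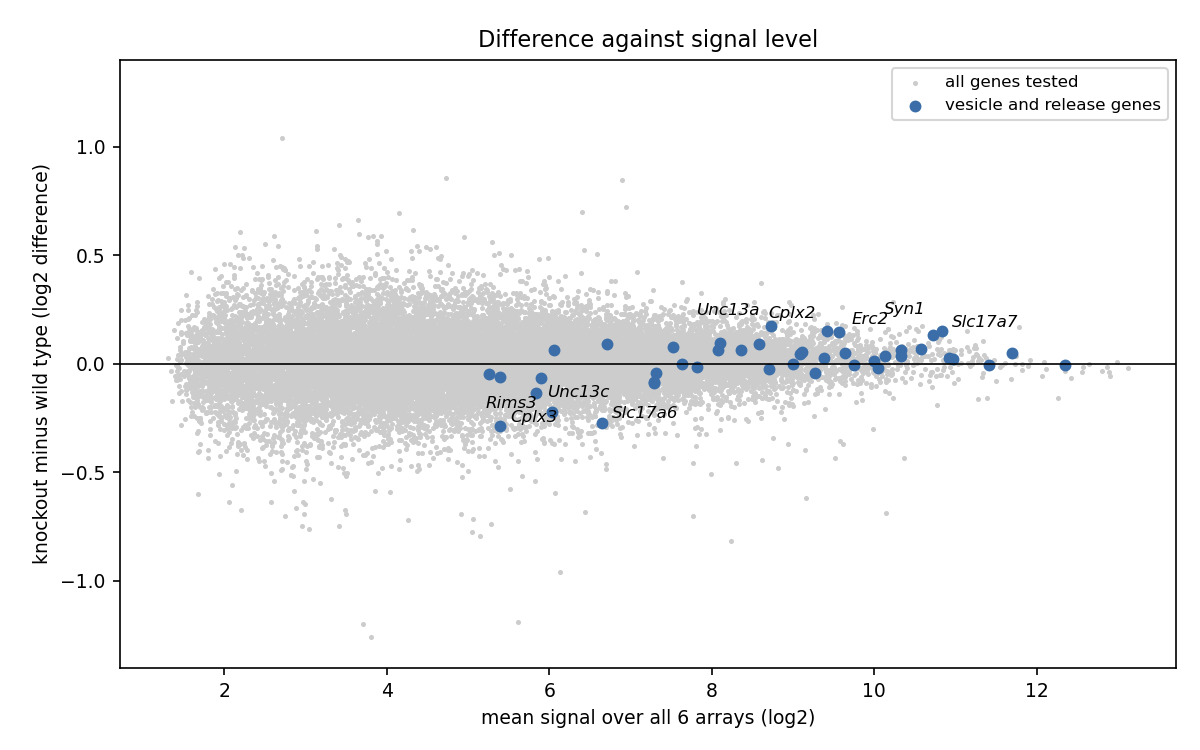
Knockout minus wild type (log2 difference, vertical axis) against the mean signal over all 6 arrays (log2, horizontal axis) for all 22180 genes tested (grey) and the 43 vesicle and release genes (blue). The named members Cplx3, Rims3, Slc17a6 and Unc13c lie low among the dimmer genes. Cplx2, Erc2, Syn1 and Slc17a7 lie above 0 among the brighter, and Unc13a, a dimmer member at 8.73, lies above 0 as well.

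Knockout replicate 1 gave the highest of the 6 values for 16 of 43 members (37.2%), against 18.9% of all genes. These were Syn1, Syn2, Syp, Sv2b, Syt2, Vamp1, Cplx1, Cplx2, Stx1a, Bsn, Pclo, Erc2, Unc13a, Unc13b, Rims2 and Dnm1. It gave the lowest value for 5 members (11.6%, against 16.1% of all genes), Slc17a6, Syt1, Syt4, Doc2b and Rims3. Every other sample was the highest for 3 to 8 members. The median deviation of members from their own mean was 0.04 in that sample and -0.01 to 0.01 in the others. Without it, 23 members were higher and 20 lower, with a median difference of 0.0061. The neuron markers also had their largest median deviation there, at 0.09, against -0.04 to 0.0046 in the other samples. Their part in the members' values was not tested.

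The members' samples were set beside markers of other cells. All 14 measured oligodendrocyte and myelin markers were lower in knockout, 13 of them at an unadjusted limma p under 0.05 and 0 at the adjusted threshold, with a median difference of -0.44. Their mean signal was 8.19 to 8.30 in wild-type samples and 7.55 to 8.12 in knockout samples, with no marker below the median of all probe sets. The lowest of the 14 by p were Tspan2 at -0.62 and Aspa at -0.68. Knockout replicate 2 was the lowest for this list, with a median deviation of -0.50, and knockout replicate 1 followed at -0.22, whereas knockout replicate 3 was at 0.08. The members' median deviation in these samples was 0.0018, 0.04 and 0.0034. GABA neuron markers were lower in 10 of 14 genes, with a median of -0.08. Their mean signal was 7.31 to 7.38 in wild type and 7.24 to 7.29 in knockout. The homeobox genes Dlx2 and Dlx5 had the smallest p of that list, at -0.21 and -0.29, while Dlx6 of the same family was at 0.13. Neuron markers were higher in 11 of 14, with a median of 0.04, Map2 at 0.11 and Gap43 at -0.16, and a mean signal of 8.998 to 9.02 in wild type and 8.998 to 9.10 in knockout. What these lists contribute to the members' values was not tested.

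The other lists are given by their counts and leading genes. Dentate gyrus markers were led by Plk5 at 0.30 and C1ql2 at 0.28, and CA1 markers, with 4 of 6 higher and a median of 0.11, by Wfs1 at -0.25 and Mpped1 at 0.26. CA2 markers had 4 of 6 higher (median 0.06, Map3k15 0.30 and Rgs14 0.23), and CA3 markers 5 of 9 (median 0.03, Iyd -0.36 and Cpne4 0.19). In the thalamus and habenula list Zic1 differed by -0.96 and Prkcd by -0.20, while 3 of 5 striatum markers were higher (median 0.03, Drd1 0.22 and Pde10a 0.17). Of the glial and vascular lists, 4 of 10 astrocyte markers were higher (median -0.0062, Aqp4 -0.16 and Gja1 -0.14), as were 3 of 9 microglia markers (median -0.02, Ctss -0.29 and Aif1 0.24). Higher means were also found for 2 of 10 endothelial markers (median -0.09, Abcb1a -0.26 and Emcn -0.13) and 1 of 6 choroid plexus markers (median -0.11, Ttr -0.43 and Clic6 -0.30). The probe sets of Map3k15, Drd1, Aif1 and Clic6 had wild-type means under 4.72. None of the genes in these lists passed the adjusted threshold.

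**Figure D5:**
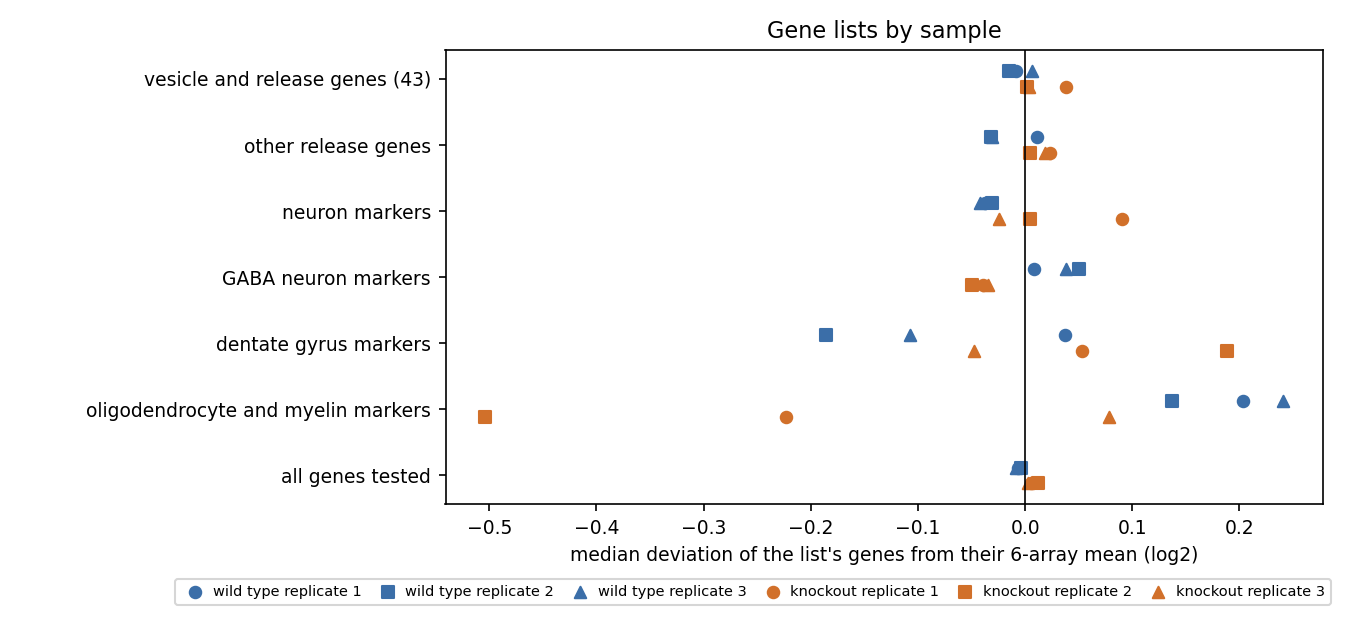
Median deviation (log2, horizontal axis) of the genes of each list from their own mean over the 6 arrays, by sample, for the 43 vesicle and release genes, other release genes, marker lists and all genes. The oligodendrocyte and myelin list spans -0.50 to 0.24, while the 43 members stay between -0.01 and 0.04.

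Other genes of the same pathway, from a separate list of 72 with no member in it, are given by their counts. Of its 67 measured genes, 42 had a higher knockout mean (62.7%, against 54.9% of all genes) and 25 a lower one, the median being 0.05. At the adjusted threshold there were 0 calls, and 1 gene had an unadjusted limma p under 0.05. That gene was Syt3, a synaptotagmin linked to the cycling of postsynaptic receptors, with 7.10, 7.09 and 6.99 in wild type and 7.31, 7.36 and 7.24 in knockout. All its knockout samples lay above all wild-type samples, on average by 0.24 (standard error 0.08, adjusted limma p 0.849). Syt10, a synaptotagmin of IGF-1 secretion, was higher in all 3 knockout samples as well, by 0.16 on average. Syngr2, a broadly expressed synaptogyrin, was lower in all 3, at -0.25, and so was Vamp7, a SNARE of endosomal and neurite traffic, at -0.20. The acetylcholine transporter gene Slc18a3, with a wild-type mean of 3.31 below the median of all probe sets, differed by 0.22 and the liprin gene Ppfia2 by 0.15, both with overlapping groups. In this list the groups did not overlap for 6 genes higher in knockout (8.96%, against 6.41% of all genes) and 3 lower (4.48%, against 4.45%).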

How the data were processed

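The authors deposited log2 signals per probe set for all 6 arrays in 1 table, for which the submitters' processing notes name RMA and the Affymetrix Power Tools, with versions not given in the sources used here. RNA was isolated with Trizol and labelled with biotin, per the labels' protocols. Arrays were normalized together, so a shift shared by most genes would not show, and without raw scans no signal could be set against background. Precision is limited by how many arrays there are.

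Of 41345 probe sets, 23521 named 1 gene in the platform annotation, 1814 several and 16010 none. The brightest probe set of each gene gave 22180 genes, and all 43 members matched RefSeq (GRCm38.p6) by gene number. Knockout and wild type were compared across all genes with limma 3.58.1 (lmFit, eBayes, genotype as the only term) in R 4.3.3, with Benjamini-Hochberg adjustment at 0.05. The code was run on simulated data with added changes larger than any member's difference. That run checked the mean estimate and does not bear on changes as small as the members'. Figures used matplotlib 3.10.9 in Python 3.11.15. The alternatives left out each sample in turn, used other probe sets of a gene or only probe sets above the median, weighted arrays, blocked on replicate number, centred on medians or quantiles, or moderated variances with a trend and robustly.

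All members are named. Values per sample are given at least for members with an unadjusted p under 0.05 or groups that do not overlap, and for the smallest p of each role group. Of other lists the smallest p values are named, 6 for other release genes and up to 2 for each marker list. The members and lists were chosen with earlier results of these data known.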

Additional observations from a re-analysis of the deposited data

How the results depend on the processing

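No member was called at the adjusted threshold under any alternative run, the lowest adjusted limma p being 0.705 (Cplx3, with only probe sets above the median). The count of members at an unadjusted p under 0.05 went from 1 to 5 with trend and robust variance (Syn1, Slc17a7, Cplx2 and Erc2 higher in knockout, Cplx3 lower), 2 when dim probe sets were dropped (Slc17a7 higher, Cplx3 lower), and 0 to 2 without single samples (2 when wild-type replicate 1 was dropped, and 0 when its replicate 3 or either of the knockout replicates 1 and 2 was). Over all genes, 701 were higher and 575 lower at that limit in the main fit, and 803 and 576 with trend and robust variance. With dim probe sets dropped they were 506 and 395 of 12978 genes, and without single samples 617 to 742 and 469 to 708. With the replicate number as a block 2 members passed the unadjusted limit (Cplx3 and Rims3), against 721 of all genes higher and 595 lower. Whether the numbers pair the samples cannot be told from these values. Same-numbered deviations from the group means correlated at 0.067, 0.035 and -0.0038. Wild-type replicates 1 and 2 correlated best with the knockout sample of the same number, and wild-type replicate 3 with knockout replicate 2, at 0.011. All these correlations are small and come from deviations within groups of 3. Over all genes the count of 0 at the adjusted threshold was 1 with the trended and robust variance, where Trpc4 differed by -0.70 at an adjusted limma p of 0.0378, and 0 to 1 without single samples (1 without knockout replicate 1). The sign held under every alternative for 21 members and turned for 22, whose differences were all under 0.14 in size. Syp became -0.066 with the mean of its probe sets and -0.16 with its second probe set, and Rab3c -0.023 with its second. Quantile normalization gave Syt1 0.0092 and Snap25 0.058, and array weights gave Doc2b 0.0091, Rph3a 0.0029, Amph 0.0036 and Cplx1 -0.00050. Without single samples the ranges of turned members were -0.022 to 0.069 for Syp, -0.097 to 0.0071 for Syngr1, -0.026 to 0.063 for Syngr3, -0.014 to 0.071 for Sv2b, -0.22 to 0.023 for Slc17a8, -0.022 to 0.015 for Syt1 and -0.17 to 0.0028 for Syt2. They were -0.062 to 0.023 for Syt4, -0.0021 to 0.12 for Syt7, -0.044 to 0.046 for Doc2b, -0.030 to 0.015 for Rph3a, -0.0020 to 0.14 for Vamp2, -0.014 to 0.0021 for Snap25 and -0.069 to 0.074 for Cplx1. They were -0.00063 to 0.037 for Nsf, -0.048 to 0.0042 for Napb, -0.25 to 0.043 for Unc13c, -0.076 to 0.057 for Rims2, -0.023 to 0.17 for Bsn, -0.0032 to 0.10 for Pclo and -0.028 to 0.043 for Amph. The cause of these changes was not tested. The second probe sets of Bsn, Rab3c, Syp and Syt4 were dimmer than those used, and signal over background is not known for any of them.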
